A study of Mus musculus with 16 samples.

Results

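The genes of ketone body use, Slc16a1, Bdh1, Oxct1 and Acat1, were followed in the mouse left ventricle through every probe set that the array annotation assigned to exactly 1 of them. The 4 genes had 11 of the 45101 probe sets on the array: 2 for Slc16a1, 2 for Bdh1, 4 for Oxct1 and 3 for Acat1. RNA had been taken from wild-type mice (WT) and from PPARalpha-/- mice (KO), after a sham operation or after transverse aortic constriction (TAC), which narrows the aorta and loads the left ventricle with pressure, at 28 days. Each of these groups, named by genotype and operation (KO TAC, for example), held 4 Affymetrix arrays, and the design addresses which cardiac transcripts go with PPARalpha at rest and under sustained load. Strain, sex, age, the cells in which the deletion acts and whether arrays came from separate animals are stated by none of the sources used here. The p-values therefore cover no more than the spread among these arrays, part of which may be technical.

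Ketone bodies are small acids that the liver makes from fatty acids and that the heart burns as a fuel, more so in fasting and in the failing heart. They enter the cell through monocarboxylate transporters such as MCT1, the product of Slc16a1. In the mitochondria BDH1 oxidises beta-hydroxybutyrate to acetoacetate, SCOT (the product of Oxct1) passes coenzyme A from succinyl-CoA to acetoacetate, and ACAT1 splits the acetoacetyl-CoA into acetyl-CoA for the citric acid cycle. ACAT1 also carries out the last step of isoleucine breakdown. PPARalpha is a lipid-activated transcription factor that drives genes of fatty acid oxidation in the heart, and those of ketone body synthesis in the liver.

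Values are signals on the linear scale of the deposited table, given as mean ± SD over 4 arrays, and log2 fold changes ± their standard error from limma. The brightest probe set of each gene stood for the gene in a fit over 10916 genes, and each of the 11 probe sets was also tested in a fit over 45037 probe sets. Differences with a p under 0.05 after Benjamini-Hochberg adjustment are referred to as called. Median signals lay between 108.3 and 163 on the 16 arrays, and arrays correlated with their group partners at a mean r of 0.877 (WT TAC replicate 3) to 0.926 on the log2 scale. The mean log2 signal of 9 hybridisation spike-in probe sets ran from 12.00 in KO TAC replicate 3 to 13.04 in WT TAC replicate 3. Ppara, the targeted gene, was lower in KO by -1.70 ± 0.17 in sham (adjusted p = 5.71e-05) and by -1.92 ± 0.17 in TAC (adjusted p = 1.18e-05). No source used here says whether its probes match the stretch that was deleted.

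Calls among the members came from the genotype comparisons and had both signs. Averaged over sham and TAC, Acat1 was 1.33-fold lower in KO (-0.41 ± 0.06, adjusted p = 0.00157) and Bdh1 was 1.38-fold higher in KO (0.47 ± 0.11, adjusted p = 0.0359). Slc16a1 (-0.06 ± 0.11, adjusted p = 0.852) and Oxct1 (0.00 ± 0.06, adjusted p = 0.991) were not called. So 2 of the 4 members were called in this average, against 2.27% of all genes tested. In KO TAC against WT TAC only Acat1 was called, 1 of 4 members against 2.46% of genes, and in KO sham against WT sham 0 of 4 were called against 0.742%. Comparisons that share a group, such as KO TAC against WT TAC and against KO sham, share its arrays and are not independent. TAC against sham called 0 of 4 members in KO, where 2.57% of genes were called, and 0 of 4 in the average over both genotypes, where 1.99% were. TAC against sham in WT and the difference between the TAC responses of the genotypes called 0% of all genes by limma, with 832 and 1128 genes at an unadjusted p under 0.05. At that unadjusted level stood 3 of 4 members for KO against WT in sham, against 8.52% of all genes, and 2 of 4 in TAC, against 16.4%. For TAC against sham they were 2 of 4 in KO, against 16% of genes, and 1 of 4 in WT, against 7.62%, and for the difference of the responses 1 of 4, against 10.3%.

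**Figure D1:**
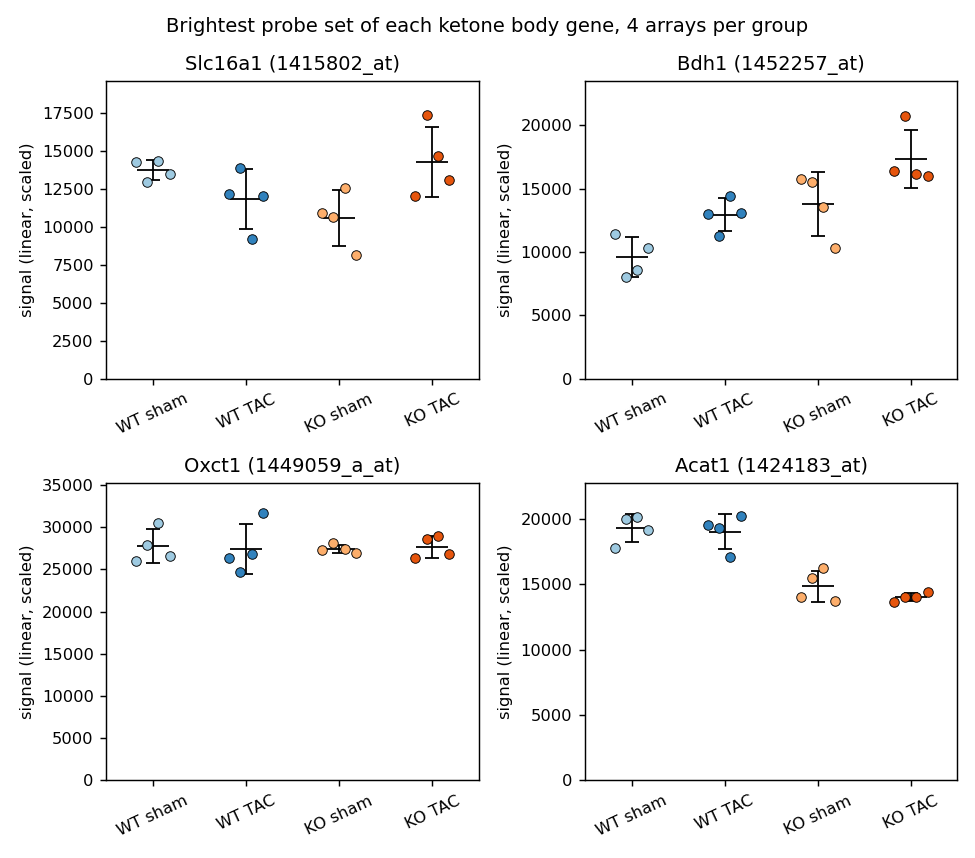
Signal (linear, scaled by the authors) of the brightest probe set of each gene in the 4 groups; each point is 1 array, the long bar is the mean and the whiskers are 1 SD (n = 4). The KO arrays of Acat1 (13682 to 16224) all lie below the WT arrays (17121 to 20216), the KO TAC arrays of Bdh1 (16019 to 20715) lie above all others, and the groups of Oxct1 overlap.

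Slc16a1 encodes MCT1, a proton-coupled carrier of lactate, pyruvate and ketone bodies across the plasma membrane. Its bright probe set 1415802_at read 14272, 12995, 14343 and 13526 in WT sham, and 12220, 13934, 9225 and 12051 in WT TAC. It read 10938, 10671, 12604 and 8132 in KO sham, and 12063, 17393, 14717 and 13098 in KO TAC. All KO sham arrays lay below all WT sham arrays, while the other pairs of groups compared overlapped. In order of their means the groups ran from KO sham (10586 ± 1847) through WT TAC (11858 ± 1950) and WT sham (13784 ± 643) to KO TAC (14318 ± 2323), and neighbours in this order overlapped.

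None of the differences in Slc16a1 was called. KO against WT gave -0.40 ± 0.15 in sham (adjusted p = 0.429) and 0.27 ± 0.15 in TAC (adjusted p = 0.401). TAC against sham gave -0.23 ± 0.15 in WT (adjusted p = 0.76) and 0.44 ± 0.15 in KO (adjusted p = 0.16). These responses have opposite signs, and their difference was 0.67 ± 0.22, with a 95% interval from 0.21 to 1.14 and an adjusted p of 0.367. As a background to such separations, groups did not overlap for 5.91% of all genes in KO against WT in sham and for 9.55% in TAC, and for 10.8% in TAC against sham in KO and 4.28% in WT.

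The arrays at the ends of the Slc16a1 range were also those at the ends of the spike-in range. The spike-in mean was highest in WT TAC replicate 3 (13.04) and KO sham replicate 4 (12.90), the arrays with the lowest Slc16a1 signal, and lowest in KO TAC replicates 3 (12.00) and 2 (12.13), the arrays with the highest. With the spike-in mean as a covariate the difference between the TAC responses was 0.16 (adjusted p = 0.983), and KO against WT in TAC became -0.08. With KO TAC replicates 2 and 3 and WT TAC replicate 3 left out the difference was 0.38 (adjusted p = 0.787). The spike-in mean itself differed between groups, from 12.62 to 13.04 in WT TAC and from 12.00 to 12.68 in KO TAC. The covariate thus takes up part of the compared difference. The arrays left out held the highest Slc16a1 signals of KO TAC and the lowest of WT TAC. Neither fit can therefore tell spike-in level and group apart. The dim probe set 1446274_at read between 17.5 and 185.6 over all arrays, close to the array medians or below, and gave a difference of opposite sign (-0.66 ± 0.87).

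**Figure D2:**
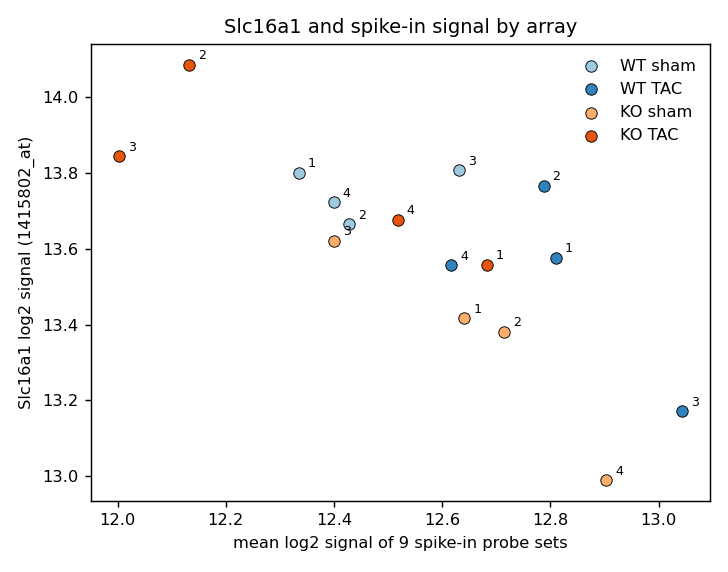
Log2 signal of Slc16a1 (1415802_at, vertical axis) against the mean log2 signal of 9 spike-in probe sets (horizontal axis), 1 point per array, numbered by replicate and coloured by group. KO TAC replicates 2 and 3 lie at the upper left (spike-in 12.13 and 12.00) and WT TAC replicate 3 and KO sham replicate 4 at the lower right (13.04 and 12.90).

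The other monocarboxylate carriers and their chaperones were tested for 6 of 15 listed genes, and the other 9, among them Slc16a3 and the chaperone Emb, fell below the filter on dim genes. Bsg (basigin), the chaperone that brings MCT1 to the cell surface, was the 1 gene of this list to be called. It was lower in KO TAC than in WT TAC (-0.44 ± 0.10, adjusted p = 0.0356), a call made in 6 of 15 alternative settings and in 1 of 8 that left out 1 array. In that comparison the list had a median of -0.25, against 0.03 over all genes tested. Slc16a7, which encodes MCT2, gave 1.50 ± 0.52 in KO sham against WT sham (adjusted p = 0.33) and -1.28 ± 0.52 for TAC in KO (adjusted p = 0.225).

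Bdh1 encodes the mitochondrial dehydrogenase that starts the oxidation of beta-hydroxybutyrate. Since it was the member higher in KO, the 250 bases before each of its RefSeq starts (GRCm38.p6, chromosome 16, plus strand) are shown. The first window is chr16:31422047-31422296 and the second is chr16:31428503-31428752. PPAR-RXR pairs bind a direct repeat of the hexamer AGGTCA in which any 1 base parts the 2 copies. Capitals mark a stretch with the fewest mismatches to that repeat on either strand. Where stretches tie, as in the first window, only the leftmost is marked.
Bdh1 start 1: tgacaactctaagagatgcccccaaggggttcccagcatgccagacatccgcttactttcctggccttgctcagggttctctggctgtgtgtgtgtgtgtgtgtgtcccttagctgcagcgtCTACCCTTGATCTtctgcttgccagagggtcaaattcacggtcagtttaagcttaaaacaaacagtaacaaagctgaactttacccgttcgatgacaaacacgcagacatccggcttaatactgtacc
Bdh1 start 2: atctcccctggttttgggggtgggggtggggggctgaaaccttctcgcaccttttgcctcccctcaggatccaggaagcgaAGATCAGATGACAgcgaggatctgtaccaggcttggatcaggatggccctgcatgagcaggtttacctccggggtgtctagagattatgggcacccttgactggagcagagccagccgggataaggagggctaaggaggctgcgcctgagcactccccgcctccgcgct
The capitals of start 1 are on the minus strand and have 4 mismatches, and those of start 2 are on the plus strand and have 3. Among 32851 such mouse windows, 74.5% hold a match with at most 4 mismatches and 21.3% one with at most 3. A single AGGTCA, part of that repeat, occurs in 14% of all windows and in neither of these, nor in the single windows of Oxct1 (chr15:4026178-4026427) and Slc16a1 (chr3:104638414-104638663). The longer TNAAGGTCA, which contains the hexamer and is bound, with N for any base, by estrogen-related receptors, occurs in 1.14% of windows and in none of these 4. RefSeq promoter windows were matched for 3 of the 4 members, all but Acat1. These counts describe the letters of the windows only.

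The bright probe set of Bdh1, 1452257_at, read 11438, 7993, 8573 and 10294 in WT sham, and 13019.9, 11246, 14438 and 13112 in WT TAC. It read 15764, 15522, 13576 and 10293 in KO sham, and 16409, 20715, 16170 and 16019 in KO TAC. The KO TAC arrays were the highest of all and overlapped with no other group. The share of all genes with KO TAC apart from every other group was not counted. It can be no more than the 9.55% of genes apart in KO TAC against WT TAC. The means ran from WT sham (9574 ± 1581) through WT TAC (12954 ± 1310) and KO sham (13789 ± 2528) to KO TAC (17328 ± 2264), and each of the first 3 groups overlapped with its neighbour.

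KO against WT gave 0.52 ± 0.15 for Bdh1 in sham (adjusted p = 0.224) and 0.42 ± 0.15 in TAC (adjusted p = 0.191). TAC against sham gave 0.45 ± 0.15 in WT (adjusted p = 0.585), 0.34 ± 0.15 in KO (adjusted p = 0.295) and 0.39 ± 0.11 in the average of both (adjusted p = 0.0911). The responses to TAC differed between genotypes by -0.10 ± 0.22 (95% interval -0.57 to 0.36, adjusted p = 0.907). Only the difference between genotypes averaged over both operations was called. That call was lost in 13 of 16 fits that left out 1 array, with values from 0.42 to 0.54 and adjusted p from 0.00988 to 0.0862. The call held without WT sham replicate 1, WT TAC replicate 3 or KO sham replicate 4.

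The second Bdh1 probe set, 1426959_at, also had its highest arrays in KO TAC. Its mean was 611 ± 78.3 in WT sham, 756 ± 140 in WT TAC and 796 ± 134 in KO sham. In KO TAC the arrays read 1307, 2198.5, 1762 and 1150, all above every array of the other groups, the highest of which read 980.1. KO TAC was 2.09-fold above WT TAC (1.06 ± 0.22, adjusted p = 0.0773 over all probe sets), where 0.253% of probe sets were called, and 1.97-fold above KO sham (0.98 ± 0.22, adjusted p = 0.129). The difference between the TAC responses was 0.68 ± 0.31 (adjusted p = 0.698), against -0.10 for the bright probe set. Averaged over both operations KO against WT gave 0.72 ± 0.16 (adjusted p = 0.0798). With the gene taken as the mean of its probe sets, KO TAC against WT TAC was 0.74 (adjusted p = 0.0471). Both Bdh1 probe sets had the same order of group means, and correlated with r = 0.83 over the 16 arrays and 0.61 after group means were removed.

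KO TAC replicate 2 was the highest array on both Bdh1 probe sets and was also 1 of the 2 arrays with the lowest spike-in mean. With KO TAC replicates 2 and 3 and WT TAC replicate 3 left out, KO TAC against WT TAC was 0.75 on 1426959_at (adjusted p = 0.545), and the called average over both operations on the bright probe set was 0.45 (adjusted p = 0.142). With the spike-in mean as a covariate these values were 0.77 (adjusted p = 0.67) and 0.43 (adjusted p = 0.0914), with the limit given for Slc16a1.

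**Figure D3:**
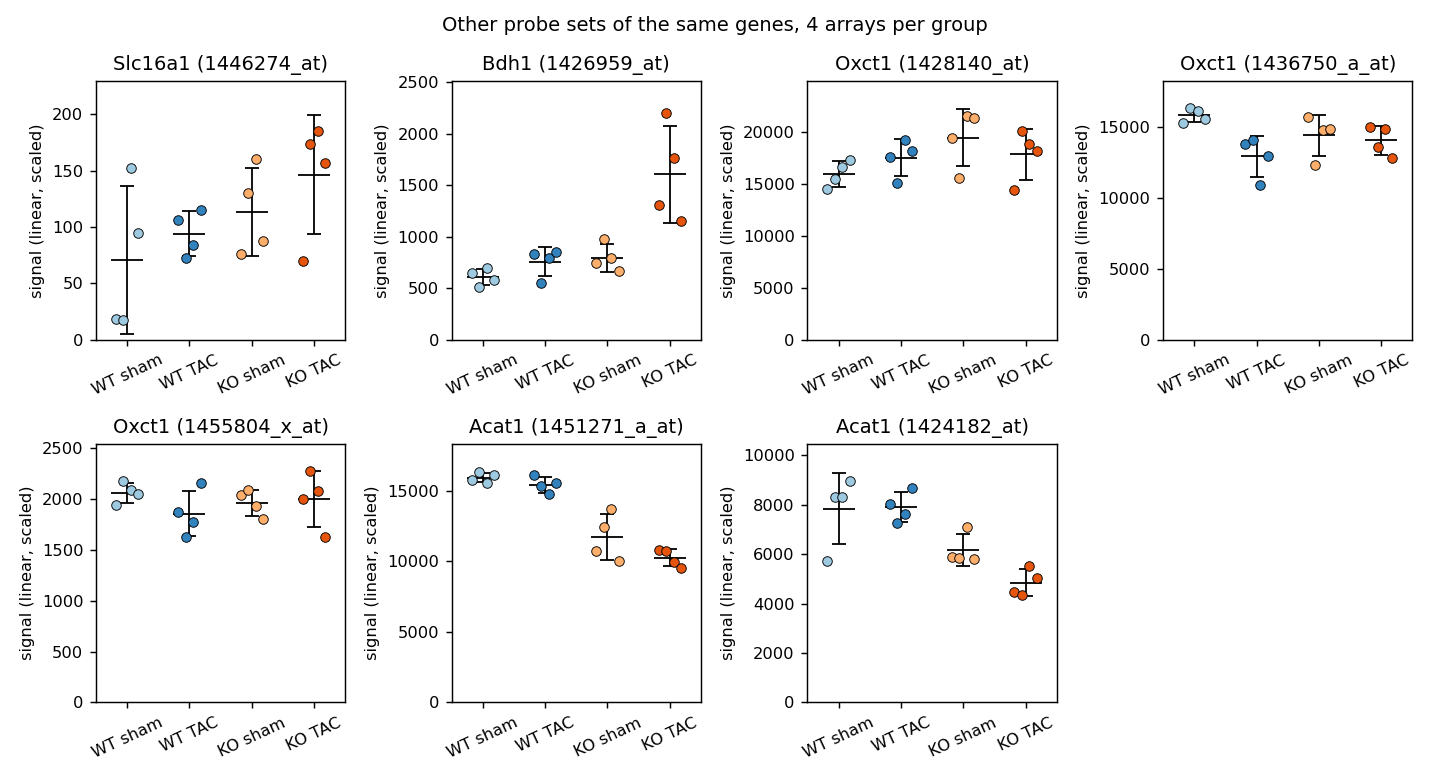
Signal (linear, scaled by the authors) of the 7 other probe sets of the same genes in the 4 groups; points are arrays, the long bar is the mean and whiskers are 1 SD (n = 4), each panel with its own axis from 0. On Bdh1 1426959_at the KO TAC arrays (1150 to 2198.5) lie above all others, and on Acat1 1451271_a_at the KO arrays (10041 to 13684 in sham, 9548 to 10793 in TAC) lie below the WT arrays.

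Oxct1 encodes SCOT, the coenzyme A transferase that commits acetoacetate to oxidation and that the liver lacks. The group means of its bright probe set, 1449059_a_at, lay close together. Sham hearts gave 27749 ± 1989 (WT) and 27452 ± 481 (KO), and TAC hearts gave 27398 ± 2995 (WT) and 27665 ± 1287 (KO). The arrays ran from 26023 to 30511 in WT sham, from 24735 to 31682 in WT TAC, from 26964 to 28112 in KO sham and from 26328 to 28910 in KO TAC, so that every pair of groups overlapped. KO against WT was -0.01 ± 0.09 in sham (adjusted p = 0.984) and 0.02 ± 0.09 in TAC (adjusted p = 0.946). The 95% intervals of these log2 differences were -0.21 to 0.18 and -0.18 to 0.21. TAC against sham was -0.02 ± 0.09 in WT (adjusted p = 0.977), with an interval from -0.22 to 0.17, and 0.01 ± 0.09 in KO (adjusted p = 0.979), with one from -0.19 to 0.21.

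Of the other Oxct1 probe sets, 1455804_x_at correlated with the bright one at r = 0.66 over the 16 arrays and 0.69 after group means were removed. For 1428140_at these values were 0.26 and 0.34, and for 1436750_a_at -0.0061 and -0.090. On 1436750_a_at the WT sham arrays (15280 to 16296.5) all lay above the WT TAC arrays (10889 to 14076), a difference that was not called (-0.30 ± 0.13, adjusted p = 0.815). On 1428140_at KO against WT in sham was 0.28 ± 0.15 (adjusted p = 0.923), and on 1455804_x_at TAC against sham in WT was -0.16 ± 0.14 (adjusted p = 0.91). None of the 4 probe sets was called in any comparison.

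Acat1 encodes the mitochondrial acetoacetyl-CoA thiolase. Its bright probe set, 1424183_at, read 17802, 19983, 20181 and 19155 in WT sham, and 19495, 19282, 17121 and 20216 in WT TAC. It read 13993, 15455, 16223.5 and 13753 in KO sham, and 13682, 14047, 13990.3 and 14429 in KO TAC. Every KO array lay below every WT array, and within a genotype the sham and TAC arrays overlapped. The share of all genes with the genotypes apart on every array was not counted. It can be no more than the 5.91% of genes apart in sham. The WT means were 19280 ± 1081 in sham and 19029 ± 1333 in TAC, and the KO means were 14856 ± 1182 and 14037 ± 307.

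Acat1 was 1.35-fold lower in KO TAC than in WT TAC (-0.44 ± 0.09, adjusted p = 0.0164). In sham it was 1.30-fold lower (-0.38 ± 0.09), which did not pass (adjusted p = 0.0768). TAC against sham gave -0.02 ± 0.09 in WT (adjusted p = 0.977) and -0.08 ± 0.09 in KO (adjusted p = 0.735), and the responses differed by -0.06 ± 0.12 (95% interval -0.32 to 0.21, adjusted p = 0.907). The genotype difference averaged over both operations was called in all 16 fits that left out 1 array and in 13 of 14 other settings. The exception centred each array on its median, which shifts the median over all genes to 0.22 for KO TAC against WT TAC, and gave Acat1 -0.34 in the average (adjusted p = 0.148) and -0.25 in TAC (adjusted p = 0.329). The call in TAC was made in 9 of 15 settings, with values from -0.58 to -0.25 and adjusted p from 0.00159 to 0.329, and in 7 of 8 fits that left out 1 array. It was lost without WT TAC replicate 4 (-0.41, adjusted p = 0.0565).

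All 3 Acat1 probe sets gave negative values for KO against WT under both operations. On 1451271_a_at the WT means were 15938 ± 343 in sham and 15439.6 ± 567 in TAC, and the KO means were 11729.7 ± 1647 and 10253 ± 597. KO against WT there was -0.45 ± 0.12 in sham (adjusted p = 0.397), where 0.111% of probe sets were called, and -0.59 ± 0.12 in TAC (adjusted p = 0.0773). On 1424182_at the WT means were 7829.7 ± 1433 and 7902 ± 607 and the KO means 6158 ± 635 and 4843 ± 547 in the same order, and KO TAC (4346 to 5524) lay below KO sham (5796 to 7108) as well as below WT TAC. KO against WT on that probe set was -0.33 ± 0.16 in sham (adjusted p = 0.873) and -0.71 ± 0.16 in TAC (adjusted p = 0.104), and TAC against sham in KO was -0.35 ± 0.16 (adjusted p = 0.546).

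In the fit over probe sets, 2 of the 11 were called in the average over both operations, against 0.415% of all, and both were of Acat1. They were 1451271_a_at (-0.52 ± 0.09, adjusted p = 0.0134) and 1424183_at (-0.41 ± 0.08, adjusted p = 0.0466). The third, 1424182_at, gave -0.52 ± 0.11 (adjusted p = 0.0774). The call of 1451271_a_at held in each fit that left out 1 array, with adjusted p up to 0.0398, and that of 1424183_at in 1 of them, the fit without WT TAC replicate 3 (adjusted p = 0.0318). The 3 probe sets correlated over the 16 arrays with r of 0.95, 0.88 and 0.83, and with 0.63, 0.60 and 0.21 after group means were removed. Over all probe sets, groups did not overlap for 4.08% in KO against WT in sham and for 5.89% in TAC, and for 6.25% in TAC against sham in KO and 3.47% in WT.

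**Figure D4:**
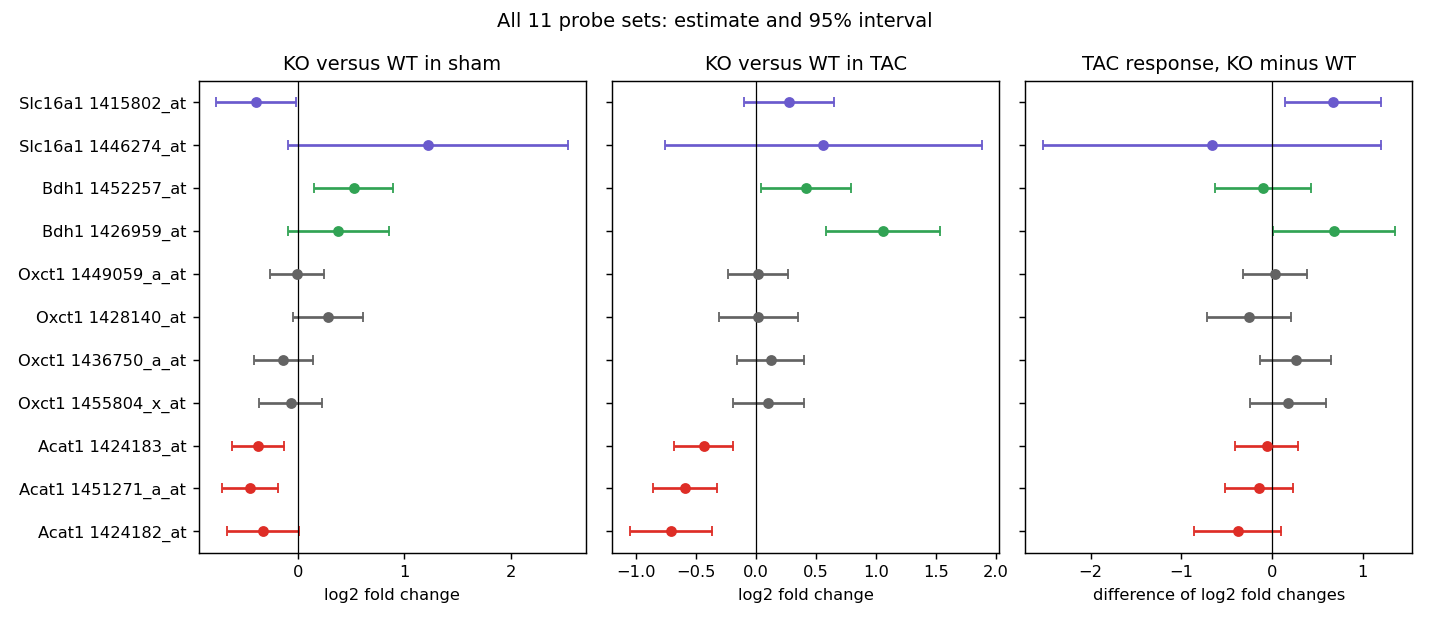
Log2 fold change (horizontal axis, its own range in each panel) with its 95% interval for the 11 probe sets, in KO against WT in sham (left), KO against WT in TAC (middle) and the TAC response of KO minus that of WT (right), from the fit over 45037 probe sets with 4 arrays per group. The 3 Acat1 probe sets lie left of 0 in both genotype panels (-0.33 to -0.45 in sham, -0.44 to -0.71 in TAC), the 2 Bdh1 probe sets lie right of 0 (0.42 and 1.06 in TAC), and the Oxct1 intervals all cover 0.

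The genes around ACAT1 were mixed. Acaa2, a mitochondrial thiolase that works on medium and long chain ketoacyl-CoA, was listed with ketone body synthesis and was lower in KO by -0.63 ± 0.11 in sham (adjusted p = 0.0107) and by -1.26 ± 0.11 in TAC (adjusted p = 1.09e-05). It also fell with TAC in KO (-0.76 ± 0.11, adjusted p = 0.0023), where Acat1 did not pass. Hmgcs1, the cytosolic synthase of the sterol pathway and the other gene of that list to be tested, gave -0.24 ± 0.15 in TAC (adjusted p = 0.451). Of the 11 listed, 4 fell below the filter on dim genes, Bdh2, Aacs and Oxct2a among them, and the rest are not analysed here.

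Of 9 genes of isoleucine breakdown tested, 2 were called in KO TAC against WT TAC, both lower, with a list median of -0.03 against 0.03 over all genes. They were Hadha (-0.65 ± 0.10, adjusted p = 0.00262) and Hadhb (-0.74 ± 0.09, adjusted p = 0.000322), the subunits of the trifunctional protein that is known for oxidising long chain fatty acids. No other gene of the list was called there, so these calls are not read as lower isoleucine breakdown. Hadha was also lower in sham (-0.63 ± 0.10, adjusted p = 0.0048), where Hadhb gave -0.26 ± 0.09 (adjusted p = 0.33). For TAC in KO all 9 values were negative and none was called, with a median of -0.38 against 0.00. The nearest was Hsd17b10, which acts just before ACAT1 on isoleucine (-0.43 ± 0.12, adjusted p = 0.0694). Bckdhb, a subunit of the branched-chain ketoacid dehydrogenase, was lower with TAC in the average of both genotypes (-0.40 ± 0.09, adjusted p = 0.0443), a call made in 8 of 14 other settings and in 2 of 16 that left out 1 array.

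SCOT needs succinyl-CoA, and 10 genes that supply or use it were tested. Mcee, the methylmalonyl-CoA epimerase, fell with TAC in KO (-0.46 ± 0.10, adjusted p = 0.0246), a call made in 8 of 15 other settings and in 2 of 8 that left out 1 array. It was the only call in this list. Suclg1, a subunit of succinyl-CoA ligase, gave -0.34 ± 0.10 in KO TAC against WT TAC (adjusted p = 0.0859) and -0.32 ± 0.10 for TAC in KO (adjusted p = 0.0976). The list medians were -0.15 and -0.17 in those comparisons, against 0.03 and 0.00 over all genes.

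Among 5 tested genes of lactate and pyruvate handling, which share MCT1 with ketone bodies, Pdk4 was called and the others were not. Pdk4, the kinase that shuts pyruvate dehydrogenase, was lower in KO by -1.16 ± 0.21 in sham (adjusted p = 0.0164) and by -0.91 ± 0.21 in TAC (adjusted p = 0.0377). These calls were kept in 3 of 8 and in 0 of 8 fits that left out 1 array, and the average over both operations (-1.03 ± 0.15, adjusted p = 0.00106) in 16 of 16. Ldhb, the heart form of lactate dehydrogenase, gave -0.41 ± 0.11 for TAC in KO (adjusted p = 0.0575). The ketone body receptors Hcar1, Hcar2 and Ffar2 fell below the filter, so 0 genes of that list were tested.

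Of 11 PPAR and PGC-1 regulators tested, Ppara was called in every genotype comparison and Rxrg, a partner of PPARs in DNA binding, in KO TAC against WT TAC (-0.36 ± 0.09, adjusted p = 0.0443). The Rxrg call was made in 7 of 15 other settings and in 0 of 8 that left out 1 array. Ppargc1a, Ppargc1b and the estrogen-related receptors Esrra, Esrrb and Esrrg were not called in any comparison. The list median in KO TAC against WT TAC was -0.05, against 0.03 over all genes.

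**Figure D5:**
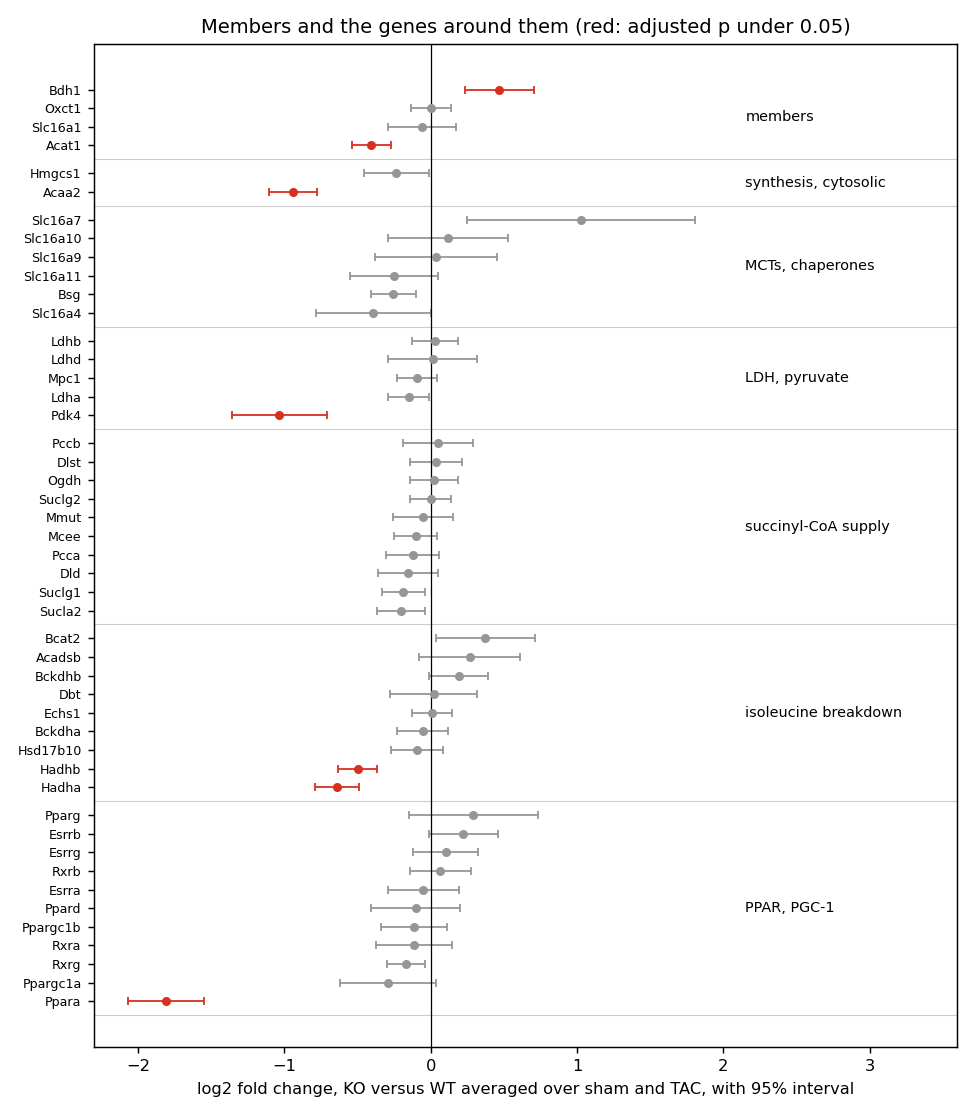
Log2 fold change of KO against WT averaged over sham and TAC (horizontal axis) with its 95% interval, for the 4 members and the tested genes of the lists around them, grouped by list; red marks an adjusted p under 0.05 in the limma fit over 10916 genes. Bdh1 is the 1 red point right of 0 (0.47), and Acat1 (-0.41), Hadhb (-0.50), Hadha (-0.64), Acaa2 (-0.94), Pdk4 (-1.03) and Ppara (-1.81) lie left of it.

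Signals of cell type markers also differed between the groups, and in whole ventricle fewer cells of a type cannot be told apart from less RNA per cell. The summed signal of 10 cardiomyocyte markers ran from 595448 to 713706 in WT sham, from 746278 to 1029890 in WT TAC, from 652676 to 789644 in KO sham and from 554168 to 713524 in KO TAC. None of the 10 was called, and their median was 0.17 for KO against WT in sham, -0.38 for KO against WT in TAC, and, for TAC against sham, -0.22 in KO and 0.35 in WT. For KO against WT, 10 of 10 had positive values in sham and 0 of 10 in TAC, where the sums did not overlap. The summed signal of 8 fibroblast markers ran from 42143 to 45438 in WT sham, from 43766 to 57051 in WT TAC, from 41124 to 48037 in KO sham and from 63488 to 70779 in KO TAC. Of these, 4 of 8 were called higher in KO TAC against WT TAC and 4 of 8 with TAC in KO. Of 10 macrophage markers 3 were called higher in KO TAC against WT TAC and 4 in the average over both operations, with sums from 21487 to 29022 in WT TAC and from 30504 to 38257 in KO TAC. Bdh1 was highest, and Acat1 lowest, in the group with the highest fibroblast and macrophage sums and the lowest mean cardiomyocyte sum. The part of these markers in either result was not tested.

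In sham, Acat1 was also lower on every KO array on 1424183_at and 1451271_a_at, while the groups overlapped on 1424182_at. In that comparison 0 of 8 fibroblast, 0 of 10 macrophage and 0 of 10 cardiomyocyte markers were called. The macrophage sums there ran from 23142 to 25898 in WT and from 26957 to 30735 in KO, without overlap. The endothelial list (8 tested) and the smooth muscle list (4 of 6 tested) had 0 calls in any comparison. All 4 tested atrial markers had positive values for KO against WT, with a median of 1.25 in sham, where 0 were called, and of 2.20 in TAC, where 1 was. Their sums did not overlap between genotypes, from 15897 to 28167 in WT sham and from 28362 to 55460 in KO sham, and from 34025 to 49067 in WT TAC and from 58087 to 71168 in KO TAC. For TAC against sham only 1 of the 4 had a positive value in each genotype, with medians of -1.98 in WT and -1.14 in KO. The sums rose with TAC all the same, so they do not stand for the list as a whole. The part of the atrial and macrophage markers in the Acat1 values was not tested. Of 2 tested erythroid markers, 1 was called higher in KO TAC than in WT TAC, and the other had a negative value. Their median in that comparison was 0.02, and their sums ran from 447 to 863 in WT TAC and from 839 to 1301 in KO TAC. The 5 adipocyte markers on the array with a single gene, Adipoq, Retn, Cidec, Lep and Ucp1, fell below the filter on dim genes.

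The genes whose pattern was most like that of each member were ranked by Pearson's r of log2 signal over the 16 arrays, which share the 4 groups. For Acat1 they were Dhrs4 (0.97), Scp2 (0.96) and Etfdh (0.96), with r of 0.75, 0.83 and 0.72 after group means were removed. Those for Bdh1 were Ccnd2 (0.91), Cpxm2 (0.87) and Creb3 (0.85), with 0.71, 0.48 and 0.48. Those for Slc16a1 were Nlk (0.89), Usp14 (0.88) and Palld (0.88), with 0.84, 0.77 and 0.85. For Oxct1 they were Gmppb (0.80), Tnrc6b (0.78) and Osbpl11 (0.78), with 0.81, 0.78 and 0.83. Taking out the group means thus lowered r more for the genes like Acat1 and Bdh1 than for those like Slc16a1 and Oxct1.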

How the data were processed

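Biotin-labelled total RNA of the left ventricle was hybridised to Affymetrix 430 2.0 arrays, per the labels' protocols. Per the submitters' processing notes the deposited table was made with GCOS 1.4, and its values are signal intensity on a linear scale. Once both tails were trimmed, the mean of every array came to 499.8, so the arrays had been scaled to 1 common mean. Background method, detection calls and filters are not given in any source used here, and the number of arrays limits precision.

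Samples were grouped by their titles. Values were raised to at least 11.9 (the 10th percentile) and log2 was taken without further normalization. Of the probe sets, 64 were controls, and 34945 had 1 gene symbol, 932 several and 9160 none. Symbols were updated by gene ID for 34741. The brightest probe set (by mean log2 signal) stood for a gene, and the dimmest 40% of 18193 genes were left out, leaving 10916. The 16 arrays were fitted together in limma 3.58.1 (R 4.3.3), each group with its own coefficient (lmFit, eBayes, two-sided, Benjamini-Hochberg over all genes), and again to 45037 probe sets without a filter. Averaged comparisons give both operations, or both genotypes, equal weight. The steps were tested on simulated data.

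The members, lists, tests and alternatives were chosen with earlier results of these data known. Named were the 4 members with all probe sets, Ppara, genes of the pathway lists that were called, some of those with the smallest p in a comparison, and the 3 genes most like each member. Alternatives were quantile normalization, median centring, other floors (38.4, the 25th percentile, or none), other filters (none or 60%), probe sets separately or averaged, without _x_at and _s_at probe sets, array weights, limma with trend and robust, fits of the compared arrays alone, replicate number as a block, fits without KO TAC replicates 2 and 3 and WT TAC replicate 3 (the most extreme spike-in signal), the spike-in signal as a covariate, and each array left out. Upstream windows are RefSeq's, of GRCm38.p6. The files name no genome build for the probes, so probe positions are not given.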

Additional observations from a re-analysis of the deposited data

Results flagged for a closer look

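The gap of an array to its nearest neighbour was taken on the log2 scale as a share of its group's range. Among the 44 groups of 4 arrays formed by the 11 probe sets, 5 held an array whose share exceeded Dixon's 95% critical value. Chance alone flags about 1 in 20 groups. The readings below are linear signals, on which the shares differ and some are smaller. On Bdh1 1452257_at, KO TAC replicate 2 read 20715.3, against 16018.5 to 16409.4 on the other arrays of its group. On Bdh1 1426959_at, WT TAC replicate 2 read 548.9, against 791.7 to 852.7. On Acat1 1424182_at, WT sham replicate 1 read 5725.3, against 8324.8 to 8941.3, and KO sham replicate 3 read 7108.1, against 5795.8 to 5882. On the dim Slc16a1 1446274_at, KO TAC replicate 1 read 69.5, against 157 to 185.6. On Acat1 1424182_at the other WT sham arrays all lie above the KO sham arrays, and the low one lies below them. No difference between the TAC responses of KO and WT was called for any member.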

How the results depend on the processing

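Quantile normalization brought the Acat1 difference in sham past the threshold (-0.42, adjusted p = 0.0357), and turned Acat1's difference of responses (0.053) and Oxct1's averaged TAC effect (0.022). Centring on medians ended the Acat1 calls in TAC (-0.25, adjusted p = 0.329) and in the average (-0.34, adjusted p = 0.148), and turned Acat1's TAC effect in KO (0.048), the differences of responses of Acat1 (0.19) and Bdh1 (0.14), and Slc16a1's averaged genotype effect (0.0063). Without a filter the Acat1 call in TAC (-0.44, adjusted p = 0.0572) and the averaged Bdh1 call (0.47, adjusted p = 0.0969) were lost, and likewise with probe sets tested separately (adjusted p = 0.118 and 0.148). These fits make more tests, and their standard errors were larger too. The standard errors were 0.096 and 0.11 for Acat1 in TAC, against 0.088, and 0.116 and 0.120 for Bdh1, against 0.110. The setting with probe sets tested separately is not the fit over probe sets reported in the Results. In that fit the bright probe sets had adjusted p = 0.177 (Acat1 in TAC) and 0.192 (averaged Bdh1 effect), also not called. A 60% filter and limma with trend and robust called Acat1 in sham (-0.38, adjusted p = 0.0414 and 0.0105) and the averaged TAC effect of Bdh1 (0.39, adjusted p = 0.0465 and 0.0266), and array weights called Acat1 in sham (-0.39, adjusted p = 0.0286). With only the arrays compared, Acat1 in TAC had an adjusted p of 0.121. Averaging the probe sets of a gene called Bdh1 in TAC (0.74, adjusted p = 0.0471), and turned Oxct1 in sham (0.013) and for TAC in KO (-0.033), Bdh1's difference of responses (0.29) and Slc16a1 in sham (0.41), for TAC in WT (0.38) and in the averaged genotype effect (0.42). The average weighs the dim Slc16a1 probe set as much as the bright one.

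With KO TAC replicates 2 and 3 and WT TAC replicate 3 left out, Acat1 in TAC (-0.48, adjusted p = 0.1) and the averaged Bdh1 effect (0.45, adjusted p = 0.142) were not called. The sign turned for Oxct1 in TAC (-0.046), for TAC in KO (-0.047), in the difference of responses (-0.033) and in the averaged genotype effect (-0.029), for Slc16a1 in TAC (-0.016) and for Acat1's TAC effect in WT (0.030). With the spike-in covariate, Acat1 in TAC (-0.51, adjusted p = 0.0695) and the averaged Bdh1 effect (0.43, adjusted p = 0.0914) were not called. The sign turned for Oxct1 in sham (0.014), in TAC (-0.042), for TAC in WT (0.025) and KO (-0.032), in the difference of responses (-0.056) and the averaged genotype effect (-0.014), for Slc16a1 in TAC (-0.079) and for TAC in WT (0.037), and for Acat1's TAC effect in WT (0.036). The spike-in mean differed between WT TAC and KO TAC, so the covariate takes up part of that comparison. The cause of these changes was not tested.

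Leaving out 1 array gave -0.49 to -0.41 for Acat1 in TAC, 0.42 to 0.54 for the averaged Bdh1 effect and -0.058 to 0.030 for Acat1's TAC effect in WT. For Oxct1 it gave -0.043 to 0.034 in sham, -0.028 to 0.091 in TAC, -0.094 to 0.025 for TAC in WT, -0.011 to 0.034 for TAC in KO, -0.015 to 0.10 for the difference of responses, -0.021 to 0.039 for the averaged genotype effect and -0.042 to 0.018 for the averaged TAC effect. Mean log2 levels of the probe sets moved by less than 1 SD in 42 of 44 groups under quantile normalization and in 39 of 44 under centring.

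Replicate numbers were not taken to pair the arrays, since the labels give them no shared source and deviations of same-numbered arrays correlated at -0.185 to 0.137, those of others at -0.137 to 0.150. The mean r was 0.009 for same-numbered arrays and -0.003 for others. Of the 4 numbers, 8 of 16 arrays correlated best with their own. These outcomes reuse the same correlations and were not tested against chance, so pairing is neither shown nor excluded. With the replicate block the averaged Bdh1 effect was 0.47 and not called (adjusted p = 0.0678), and genes called went from 81 to 64 (sham), 268 to 187 (TAC), 280 to 220 (TAC in KO), 248 to 200 and 217 to 147 (the averages).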
